A study of Homo sapiens with 17 samples.

Results

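This section describes 10 genes whose products carry adenosine across the cell membrane, make or break it down, or act on closely related purine compounds such as AMP, IMP and methylthioadenosine. They are SLC29A1, SLC29A2, ADK, AHCY, ADA, AMPD2, AMPD3, NT5E, NT5C2 and MTAP. They were chosen by name as genes whose products may handle an adenosine analog, and all 10 were found among the 19141 genes counted. Polyadenylated RNA was sequenced from YB5 cells, which derive from the human colon cancer line SW48 and carry 1 inserted copy of a GFP gene under a methylated, silenced cytomegalovirus promoter. YB5 is therefore 1 line with 1 insertion site. Cells received either 250 nM toyocamycin, a deaza analog of adenosine, or the solvent DMSO. The labels give 5 time points: 2 h with 2 libraries in each arm, 10 h with 1 DMSO and 2 toyocamycin libraries, 24 h and 48 h with 1 library in each arm, and 72 h with 3 libraries in each arm. The study's text describes a longer treatment for the last time point, and the label's time is used here. The comparisons ask how the mRNA of each gene differed between toyocamycin and DMSO at each time.

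Adenosine enters cells through equilibrative nucleoside transporters, of which SLC29A1 and SLC29A2 encode the main plasma membrane forms. Inside the cell, adenosine kinase (ADK) converts it to AMP, the step that also turns many adenosine analogs into nucleotides, and adenosine deaminase (ADA) converts it to inosine. Adenosine is formed from AMP by 5′-nucleotidases, outside the cell by NT5E (CD73), and from S-adenosylhomocysteine by AHCY, while AMP deaminases remove AMP to IMP.

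Promoter sequence is shown for the member whose mRNA fell furthest at 72 h, ADA, and for the member with the smallest change that passed the test there, MTAP. Each has a single RefSeq start site on GRCh38.p14. Of the stretch of 250 bases before that start, only bases under no exon of GENCODE v44 are printed. Capitals mark the letters GGGCGG or CCGCCC (the GC box on either strand, overlapping matches counted) and TATAAA or TTTATA (the TATA box).
ADA, chr20:44651746-44651901, minus strand: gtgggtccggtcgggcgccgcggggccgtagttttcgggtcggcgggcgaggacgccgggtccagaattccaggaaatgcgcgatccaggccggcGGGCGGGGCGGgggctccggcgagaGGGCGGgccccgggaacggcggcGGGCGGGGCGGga
MTAP, chr9:21802386-21802635, plus strand: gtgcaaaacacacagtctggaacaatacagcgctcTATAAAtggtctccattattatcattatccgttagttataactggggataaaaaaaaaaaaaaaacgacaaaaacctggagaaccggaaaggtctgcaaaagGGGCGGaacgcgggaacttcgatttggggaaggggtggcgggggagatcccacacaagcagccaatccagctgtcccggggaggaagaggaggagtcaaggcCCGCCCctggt
The ADA stretch of 156 bases held 5 GC boxes, 4 of them as overlapping pairs, no TATA box and 27 CpG dinucleotides at 79.5% G and C. Over the same stretch of all 35116 RefSeq promoters, 32.5% held a GC box, 5.54% a TATA box, and the median was 6 CpG dinucleotides and 58.3% G and C. The MTAP stretch held 2 GC boxes, 1 TATA box and 11 CpG dinucleotides at 50.0% G and C. Over the whole 250 bases, 42.6% of the promoters held a GC box, 10.7% a TATA box, and the median was 11 CpG dinucleotides and 58.0% G and C. The E-box letters CACGTG were in neither stretch, and in 3.82% and 6.34% of all promoters over the shorter and the longer stretch. SLC29A2 has no entry among these promoters. These matches describe letters in a window, and no binding or methylation was measured.

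Library totals ran from 8735465 to 22121364 counts, and mitochondrially encoded genes took 0.917% to 6.55% of them. Levels are given as CPM, read counts scaled to a common depth after TMM normalisation. The toyocamycin library of 10 h, replicate 2, stood apart: it had the lowest total and the highest mitochondrial share, and 73.2% of the 5490 genes with at most 3 counts in every DMSO library had more than 3 counts there, against 5.70% in replicate 1. It also held the haemoglobin gene HBB at 41.9 CPM, which was at 0 in replicate 1. Each member called at 10 h is therefore given with and without it. Of 12 colon epithelial markers, 8 had a median of at least 1 CPM in DMSO, while KRT20, CDX1, LGALS4 and GPA33 did not. Their summed level, most of it from KRT8, KRT18, EPCAM and CDH1, was 1762 to 6837 CPM over the DMSO libraries and 545 to 576 CPM with toyocamycin at 72 h, where 6 of the 10 tested were called as lower and 3 as higher. LGALS4 was at 2.46 to 5.34 CPM there against 0 to 0.207 CPM over the DMSO libraries, and CDH17 at 6.22 to 10.4 CPM against 0.882 to 2.38 CPM. Of 12 markers of other cell types, 2 had a median of at least 1 CPM in DMSO, with a sum of 1.42 to 13.3 CPM. In the toyocamycin libraries of 72 h the median was that high for 3 of the 12, with a sum of 91.1 to 115 CPM, of which ACTA2 alone made up 83.2 to 92.3 CPM. Of the 9 tested at 72 h, 7 were called as higher. Single libraries of 72 h held up to 5.72 CPM of COL1A2 and 1.49 CPM of ALB, while PTPRC and CD3E stayed below 1 CPM in each of them. The part of these shifts in the values below was not tested. In bulk RNA, fewer cells of a type and less RNA per cell cannot be told apart.

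The 10 genes went in different directions and at different times. By 72 h, 7 of the 10 were lower with toyocamycin and 2 were higher, and AMPD2 did not pass the test. The transporters and ADA were already low at 24 h. On the TMM scale ADK and AHCY were higher at 10 h and lower at 72 h, and NT5E was higher at both of those times. A gene was called where its p from the quasi-likelihood test of edgeR, adjusted over all genes tested by the Benjamini-Hochberg method, was under 0.1. At 2 h, 0 of the 10 were called, and 0 had an unadjusted p under 0.05. Over all 14491 genes tested, 8.94% were called at 2 h, 0.518% as higher and 8.42% as lower. The replicate number at 2 h is also the batch in the labels, which do not say what a batch was. With it as a block ADK, SLC29A2 and AHCY were called as higher, 3 of the 9 members that this fit could test, beside 27.4% of its 11848 genes, 8.72% as higher and 18.7% as lower. At 10 h, 3 members were called as higher and 2 as lower. The DMSO library of 10 h is of batch 2, and the toyocamycin libraries are 1 of each batch. Over the 16521 genes tested there, 44.8% were called, 20.4% as higher and 24.4% as lower. At 72 h the 9 called members stood against a background of 88.8%, with 47.0% of all genes called as higher and 41.9% as lower. A share of 9 in 10 is near that background, so the count by itself is no result about these genes. At 2 h the 10 members had a median log2 fold change of 0.26, beside 0.02 over all genes tested. Their medians were 0.04 at 10 h and -1.58 at 72 h, beside 0.42 and 0.18 over all genes.

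**Figure D1:**
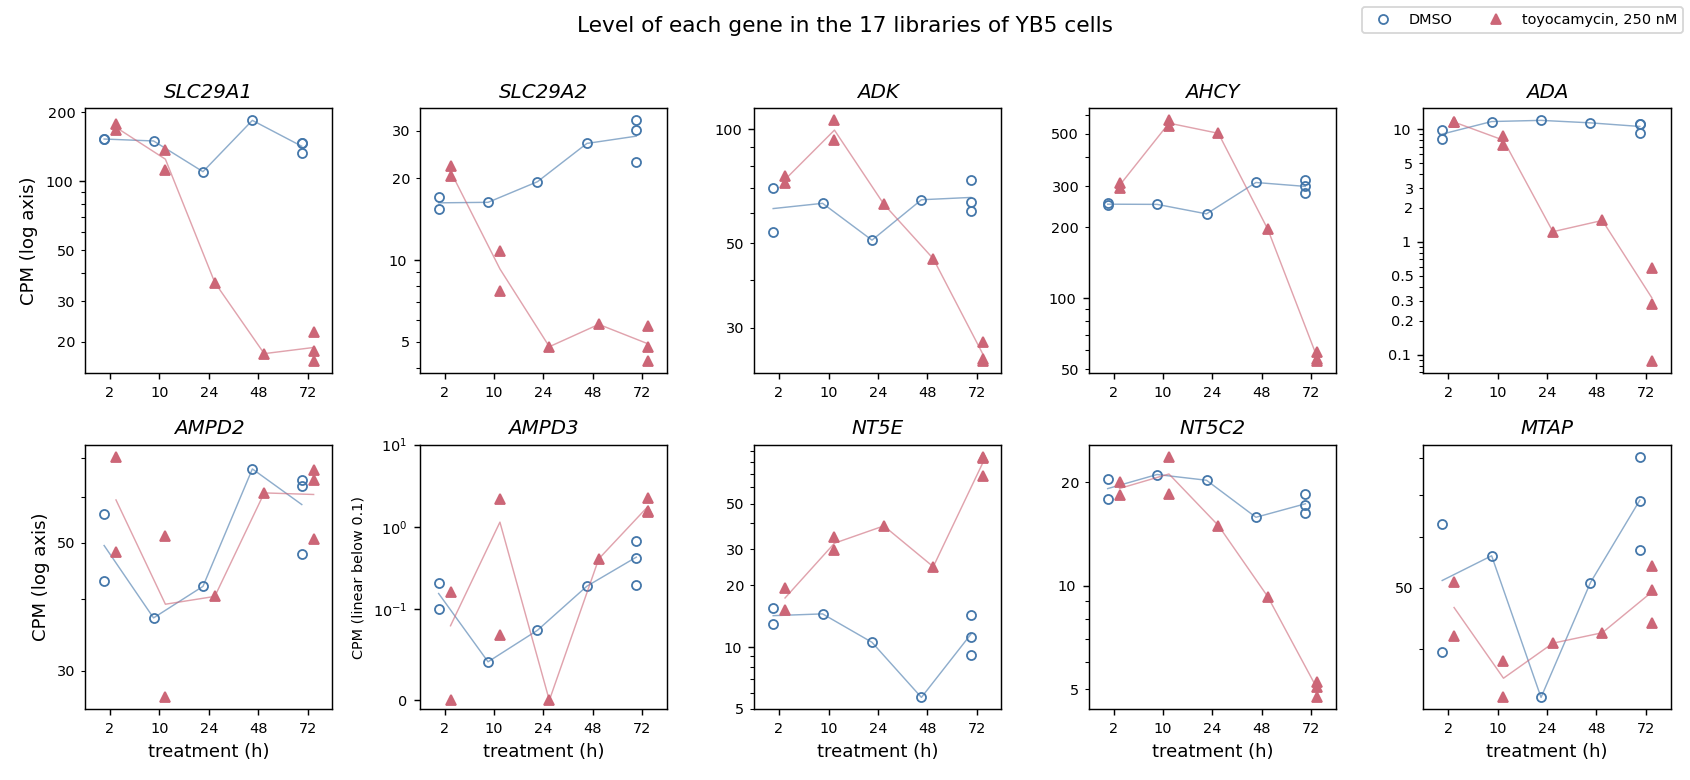
CPM (log axis, linear below 0.1 for AMPD3) of each of the 10 genes against treatment time in h, with open circles for the 8 DMSO libraries, filled triangles for the 9 toyocamycin libraries and lines through the arm means. The transporters and ADA separate from DMSO by 24 h, ADK and AHCY lie above DMSO at 10 h and below it at 72 h, NT5E lies above from 10 h on, and AMPD2 overlaps with DMSO at 72 h.

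SLC29A1, the equilibrative transporter that is the higher of the pair in these cells, stood at 110.2 to 184 CPM over the 8 DMSO libraries. With toyocamycin it was at 167 and 177 CPM at 2 h, 137 and 112 CPM at 10 h, 36.3 CPM at 24 h and 17.8 CPM at 48 h. At 72 h it was at 18.2, 16.5 and 21.99 CPM, against 146, 147 and 133 CPM in DMSO. The toyocamycin libraries from 24 h on thus lay below all 8 DMSO libraries. At 2 h and 10 h it did not pass the test, with log2 fold changes of 0.17 and -0.26, although with library size alone as the scale it was called at 10 h (-0.73, edgeR adjusted p = 0.00923). At 72 h the log2 fold change was -2.91 ± 0.14 (SE, 3 libraries in each arm, edgeR adjusted p = 2.51e-11), which is 7.51-fold lower.

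SLC29A2, the equilibrative transporter that is less sensitive to nitrobenzylthioinosine, was the only member called in the main fit between 72 h and 2 h in DMSO. AHCY, higher, and SLC29A1, lower, also differed there without overlap but were not called (edgeR adjusted p = 0.210 and 0.664). SLC29A2 was at 15.5 and 17.04 CPM in DMSO at 2 h and at 30.2, 32.7 and 22.9 CPM at 72 h, without overlap. That rise had a log2 fold change of 0.82 ± 0.19 (SE, edgeR adjusted p = 0.00812), in a comparison where 21.6% of all genes were called, 10.2% as higher and 11.4% as lower. With toyocamycin it was at 20.3 and 22.2 CPM at 2 h, which gave a log2 fold change of 0.39 that was not called without the block (edgeR adjusted p = 0.401) and was called with it (0.38, edgeR adjusted p = 0.0428). At 10 h both toyocamycin libraries, at 7.71 and 10.8 CPM, lay below the DMSO library at 16.3 CPM. The log2 fold change of -0.83 ± 0.27 (SE, edgeR adjusted p = 0.0248) passed the test, and it was -1.08 without replicate 2 and -0.59, no longer called, without replicate 1. It was not called in the libraries of 10 h alone (-0.75, edgeR adjusted p = 0.244). The single toyocamycin libraries of 24 h and 48 h were at 4.79 and 5.79 CPM. At 72 h the level was 4.24, 4.78 and 5.69 CPM, a log2 fold change of -2.54 ± 0.19 (SE, edgeR adjusted p = 3.93e-09) or 5.81-fold lower.

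ADK, the kinase that makes AMP from adenosine, stayed within 51.0 and 73.4 CPM over the 8 DMSO libraries. With toyocamycin it was at 72.0 and 75.4 CPM at 2 h, both above the DMSO libraries of 2 h at 53.6 and 70.0 CPM. The log2 fold change of 0.25 was not called without the block (edgeR adjusted p = 0.533) and was called with it (0.26, edgeR adjusted p = 0.0911). At 10 h the toyocamycin libraries were at 106 and 93.5 CPM, above every DMSO library. This gave a log2 fold change of 0.64 ± 0.23 (SE, 1 DMSO and 2 toyocamycin libraries, edgeR adjusted p = 0.0379), and it was 0.73 without replicate 2 and 0.55 without replicate 1, both called. It was 0.18 with library size alone (edgeR adjusted p = 0.510) and reversed to -0.48 when the mitochondrially encoded genes were taken as the scale, and it was 0.70 in the libraries of 10 h alone (edgeR adjusted p = 0.349), none of them called. At 24 h the single toyocamycin library was at 63.5 CPM against 51.0 CPM, and at 48 h at 45.6 CPM against 65.2 CPM. The log2 fold change at 24 h was 0.32 with TMM, -0.70 with library size alone and -1.96 with mitochondrially encoded genes as the scale. At 72 h ADK was at 24.8, 24.5 and 27.4 CPM, below all 8 DMSO libraries. That was a log2 fold change of -1.37 ± 0.14 (SE, edgeR adjusted p = 1.76e-07), or 2.59-fold lower, the smallest fall among the members past 2-fold at 72 h.

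AHCY splits S-adenosylhomocysteine, the product of methylation reactions, into adenosine and homocysteine, and it was the most abundant of the 10 mRNAs per length. Over the DMSO libraries it was at 229 to 319 CPM. With toyocamycin it was at 295 and 309 CPM at 2 h against 249 and 254 CPM in DMSO, a log2 fold change of 0.27 that was not called without the block (edgeR adjusted p = 0.405) and was called with it (0.26, edgeR adjusted p = 0.0880). The 10 h libraries held 541 and 571 CPM and the 24 h library 503 CPM, above every DMSO library. Its log2 fold change at 10 h was 1.15 ± 0.22 (SE, edgeR adjusted p = 0.000747), 1.11 without replicate 2 and 1.19 without replicate 1, but it was -0.0038 with mitochondrially encoded genes as the scale. At 48 h the single toyocamycin library, at 197 CPM, lay below the DMSO library at 311 CPM. The 3 libraries of 72 h held it at 58.9, 55.0 and 54.1 CPM against 299, 319 and 279 CPM, a log2 fold change of -2.42 ± 0.12 (SE, edgeR adjusted p = 4.38e-11) or 5.34-fold lower.

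ADA, which deaminates adenosine to inosine, had the furthest fall of the 10. It was at 8.25 to 11.97 CPM over the 8 DMSO libraries, a narrow range. With toyocamycin it was at 11.5 and 11.7 CPM at 2 h and at 8.78 and 7.18 CPM at 10 h. Neither time passed the test, with log2 fold changes of 0.36 and -0.54, although both libraries of 10 h lay below the DMSO library of 10 h at 11.7 CPM. ADA was called as lower at 10 h with library size alone (-1.02, edgeR adjusted p = 0.0149) and with mitochondrially encoded genes as the scale (-1.66, edgeR adjusted p = 0.0337). The 24 h and 48 h toyocamycin libraries held 18 and 19 counts, or 1.23 and 1.55 CPM. At 72 h the 3 libraries held 6, 3 and 1 counts, which is 0.591, 0.281 and 0.0876 CPM, against 11.2, 11.2 and 9.29 CPM in DMSO. This amounted to a log2 fold change of -5.05 ± 0.34 (SE, edgeR adjusted p = 1.31e-09). With so few counts its size moved between -5.81 and -4.58 when any 1 of the 6 libraries of 72 h was left out. In the annotation, 3.1% of the ADA transcript lies under exons of PKIG on the other strand. Exons of other genes also lie over 11.4% of the SLC29A2 transcript, 11.4% of AMPD2, 9.7% of MTAP and 6.5% of AHCY. For AHCY they are on the same strand, and for MTAP on both.

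The AMP deaminases AMPD2 and AMPD3, which turn AMP to IMP, did not follow ADA. AMPD2 was at 37.0 to 67.1 CPM in DMSO and at 50.8, 66.7 and 64.3 CPM with toyocamycin at 72 h, overlapping with DMSO at that time. Its log2 fold change there was 0.06 ± 0.18 (SE, edgeR adjusted p = 0.757). Its sign depended on the scale, with 0.38 under DESeq2 size factors, -0.54 with library size alone and -1.06 with mitochondrially encoded genes. Under each of these 3 scales the value passed the test. AMPD3 was near the detection limit, with 1 to 16 counts in the DMSO libraries. At 72 h it held 23, 16 and 18 counts with toyocamycin and 4, 9 and 16 counts in DMSO, or 2.27, 1.5 and 1.58 CPM against 0.195, 0.412 and 0.675 CPM, without overlap in CPM. The log2 fold change of 2.01 ± 0.52 (SE, edgeR adjusted p = 0.00213) passed the test, but adjusted p was 0.109 when all 17 libraries shared the fit and 0.140 with mitochondrially encoded genes as the scale. At 10 h its 20 counts came from the library that stands apart, and replicate 1 and DMSO each held 1 count, so no fold is given.

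NT5E, the CD73 ectoenzyme that releases adenosine from extracellular AMP, was the member with the largest rise. It was at 5.69 to 15.5 CPM over the DMSO libraries. With toyocamycin it was at 15.2 and 19.5 CPM at 2 h, not called, and at 29.6 and 34.5 CPM at 10 h, 38.9 CPM at 24 h and 24.6 CPM at 48 h. From 10 h on every toyocamycin library lay above all 8 DMSO libraries. At 10 h the log2 fold change was 1.14 ± 0.29 (SE, edgeR adjusted p = 0.00556), 1.04 without replicate 2 and 1.25 without replicate 1, and it was -0.025 with mitochondrially encoded genes as the scale. Its 72 h values were 84.6, 68.4 and 83.3 CPM against 9.14, 11.2 and 14.3 CPM, a log2 fold change of 2.77 ± 0.18 (SE, edgeR adjusted p = 1.10e-09) or 6.81-fold higher. This rise kept its direction under every scale tried, from 1.76 with mitochondrially encoded genes to 3.09 with DESeq2 size factors or DESeq2's Wald test.

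NT5C2, a cytosolic 5′-nucleotidase that prefers IMP and GMP, showed the opposite course late. It was at 15.8 to 21.1 CPM in DMSO and at 18.4 and 20.0 CPM at 2 h and 18.6 and 23.8 CPM at 10 h with toyocamycin, with fitted log2 fold changes of -0.00046 and -0.00029. The single toyocamycin libraries of 24 h and 48 h held it at 15.0 and 9.29 CPM. By 72 h it had reached 4.73, 5.06 and 5.26 CPM against 16.3, 17.2 and 18.4 CPM, a log2 fold change of -1.79 ± 0.16 (SE, edgeR adjusted p = 4.03e-08) or 3.45-fold lower. Exons of CNNM2 on the other strand cover 53.1% of its canonical transcript, and the strand setting of the counting is not given in the sources used here, so reads of the pair may not be told apart.

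MTAP, which splits methylthioadenosine and so releases adenine during polyamine synthesis, was the least changed of the called members. It was at 33.6 to 80.4 CPM over the DMSO libraries, a range of 2.39-fold. At 10 h it was at 33.7 and 38.4 CPM against 56.1 CPM, a log2 fold change of -0.64 ± 0.28 (SE, edgeR adjusted p = 0.0815), -0.73 without replicate 2 and -0.55, not called, without replicate 1. Its call at 10 h was also lost with batch as a term (-0.45, edgeR adjusted p = 0.111), with DESeq2 size factors (-0.43, edgeR adjusted p = 0.200) and in the libraries of 10 h alone (-0.58, edgeR adjusted p = 0.399). By 72 h MTAP stood at 54.1, 43.97 and 49.6 CPM against 68.4, 57.3 and 80.4 CPM, without overlap. Its log2 fold change of -0.48 ± 0.18 (SE, edgeR adjusted p = 0.0197) was no longer called with DESeq2 size factors, where it was -0.16 with an adjusted p of 0.398.

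**Figure D2:**
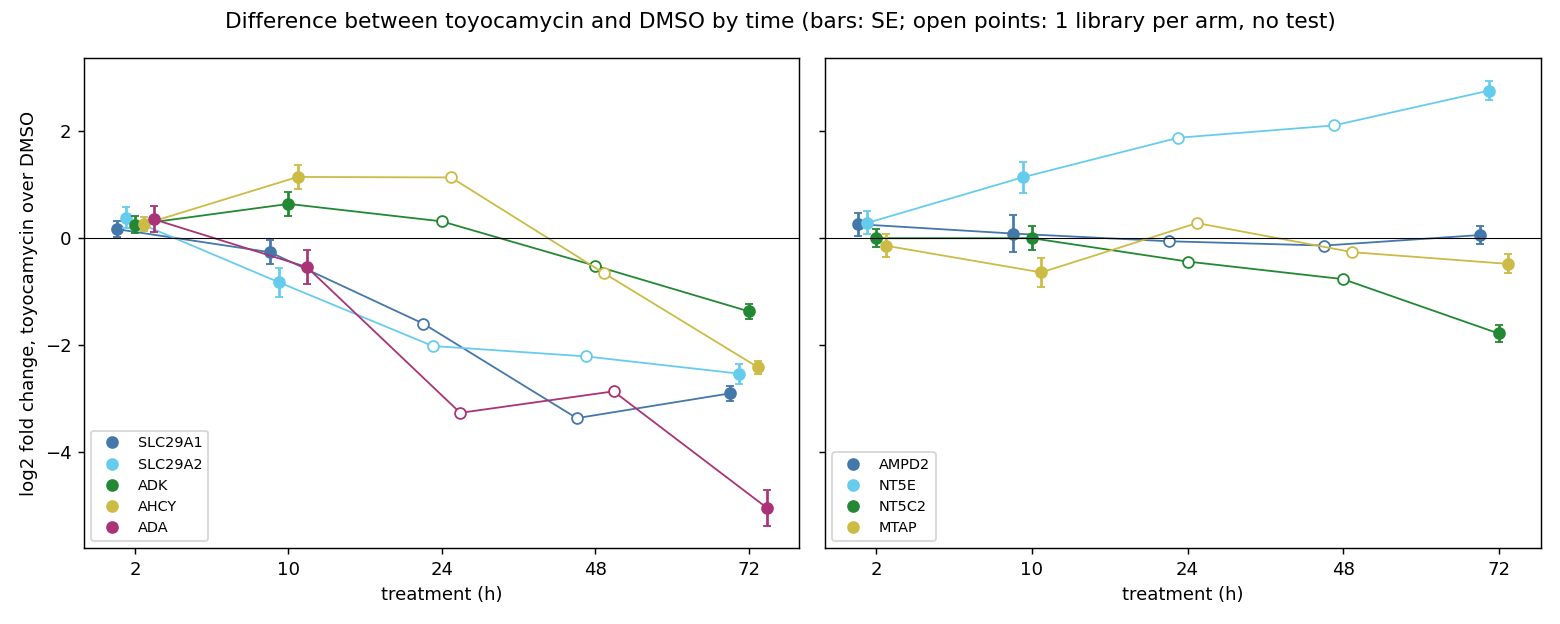
Fitted log2 fold change of toyocamycin over DMSO against treatment time in h for 9 of the genes, with SE bars where an arm had more than 1 library and open points at 24 h and 48 h, where each arm had 1 library and no test was made. ADA reached -5.05 and NT5E 2.77 at 72 h. On the TMM scale shown, ADK and AHCY crossed 0 between 24 h and 48 h. With mitochondrially encoded genes as the scale both were below 0 at 24 h (-1.96 and -1.13).

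At 24 h and 48 h the values have no replicate check. Past 2-fold at 24 h were NT5E (log2 fold change 1.88) and AHCY (1.14) as higher and ADA (-3.27), SLC29A2 (-2.02) and SLC29A1 (-1.60) as lower. AMPD3 also counted as lower there, from 2 counts in DMSO and 0 with toyocamycin, both within the floor of 3 counts, so its fold is not given. With library size alone NT5E was at 0.87 and AHCY at 0.12 at 24 h, and with mitochondrially encoded genes as the scale at -0.39 and -1.13. The number of members past 2-fold ran from 4 to 9 over the alternatives at 24 h and from 3 to 8 at 48 h. With mitochondrially encoded genes as the scale the median of all genes was -2.16 at 24 h and -1.64 at 48 h. In the main fit the 6 members at 24 h stood beside 57.5% of all genes past 2-fold, 29.7% as higher and 27.8% as lower. At 48 h NT5E (2.11) was past 2-fold as higher, and SLC29A1 (-3.37), ADA (-2.87) and SLC29A2 (-2.22) were as lower. AMPD3 counted as higher from 5 counts against 4. Over all genes 67.9% were past 2-fold at 48 h, 38.1% as higher and 29.9% as lower. ADK, NT5C2, AMPD2 and MTAP were within 2-fold at both times.

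The change of the response with time was tested as the effect at 72 h minus the effect at 2 h. It passed for 8 of the 10 genes, as lower for SLC29A1, SLC29A2, ADK, AHCY, ADA and NT5C2 and as higher for NT5E and AMPD3. Over all genes 76.1% passed, 38.0% as higher and 38.1% as lower. The effect at 72 h minus that at 10 h, a contrast added after the values were seen, passed for 7 genes. For AHCY it was -3.60 ± 0.28 (SE, edgeR adjusted p = 4.82e-08) and for ADK -2.05 ± 0.28 (SE, edgeR adjusted p = 1.52e-05). For NT5E it was 1.60 ± 0.32 (SE, edgeR adjusted p = 0.000584). Without toyocamycin replicate 2 of 10 h these were -3.53, -2.10 and 1.73, each called. Over all genes 52.0% passed, 25.4% as higher and 26.6% as lower. This contrast tests a difference of effects and not a change of sign. On the TMM scale AHCY and ADK turned direction between 10 h and 72 h. With mitochondrially encoded genes as the scale, AHCY was at -0.0038 and ADK at -0.48 at 10 h. With library size alone ADK was at 0.18 at 10 h (edgeR adjusted p = 0.510). The contrasts share the libraries of 72 h and are not independent of each other.

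The scale on which libraries are compared moved every value. The median log2 fold change over all genes at 72 h was 0.18 with TMM, 0.50 with DESeq2 size factors, -0.42 with library size alone and -0.89 with mitochondrially encoded genes. At 10 h these medians were 0.42, 0.62, -0.04 and -0.70. A change of scale shifts all genes of a comparison by nearly the same amount, so subtracting that median removes the shift by construction. That the 4 scales then give close values is no result about these genes. After subtracting the median, ADK at 72 h was at -1.55 to -1.53 under the 4 scales, AHCY at -2.61 to -2.59, SLC29A1 at -3.09 to -3.08 and NT5E at 2.59 to 2.65. At 10 h AHCY was at 0.70 to 0.74 after the subtraction, NT5E at 0.68 to 0.73, ADK at 0.22 to 0.23 and SLC29A2 at -1.31 to -1.24.

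**Figure D3:**
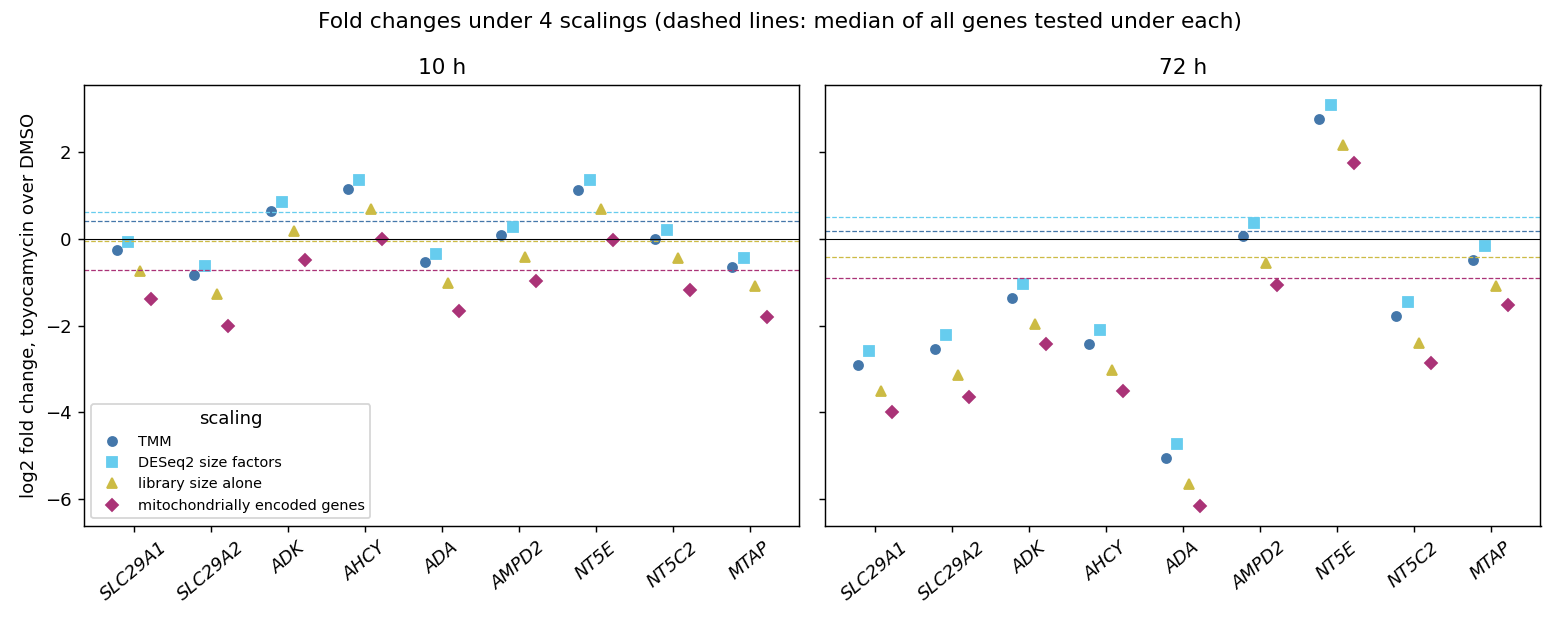
Log2 fold change of toyocamycin over DMSO for 9 of the genes at 10 h and at 72 h under TMM, DESeq2 size factors, library size alone and mitochondrially encoded genes as the scale, with dashed lines at the median of all genes tested under each. At 72 h the 6 genes past 2-fold lower stay below 0 and NT5E stays above 0 under all 4, whereas AMPD2 lies on both sides. At 10 h ADK, AHCY and NT5E lie at or below 0 when mitochondrially encoded genes set the scale.

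A ratio of 2 genes within a library does not depend on that scale. The 3 ratios here were chosen after the values were seen and are descriptions. Per kb of transcript, ADK was 3.20 to 5.94 times ADA in the DMSO libraries and 4.71 and 4.86 times ADA with toyocamycin at 2 h. The ratio was 9.04 and 9.77 at 10 h, above every DMSO library, and 38.7 at 24 h and 22.1 at 48 h. At 72 h it was 31.5, 65.3 and 235, with exact 95% counting intervals of 14.3 to 86.8, 22.1 to 319 and 41.9 to 9314, since ADA had so few counts. Over the summed counts of these libraries, 826 for ADK and 10 for ADA, it was 62.0 with an interval of 33.6 to 130. The intervals cover counting error only. ADK was 7.39 to 20.5 times NT5E in DMSO, and 0.525 to 0.639 times NT5E with toyocamycin at 72 h, so the order of the pair turned. SLC29A1 was 5.29 to 11.7 times SLC29A2 in DMSO. With toyocamycin that ratio was 12.2 and 21.0 at 10 h and 4.07 to 5.07 at 72 h, above the DMSO range at the former time and below it at the latter.

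**Figure D4:**
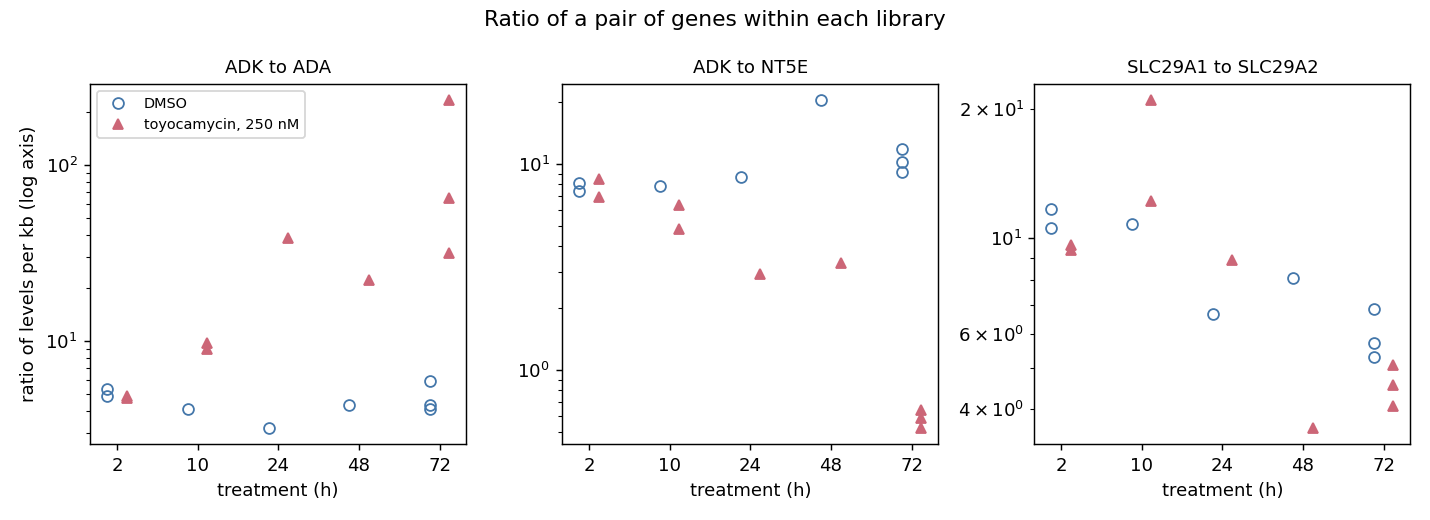
Ratio of levels per kb of transcript (log axis) for ADK to ADA, ADK to NT5E and SLC29A1 to SLC29A2 against treatment time in h, with 1 point for each library, open circles for DMSO and triangles for toyocamycin. ADK to ADA climbs from about the DMSO range at 2 h to between 31.5 and 235 at 72 h, and ADK to NT5E drops to between 0.525 and 0.639.

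Per kb of canonical transcript, a scale on which genes can be set side by side, AHCY led in DMSO with a median of 124 CPM per kb, followed by SLC29A1 at 71.3 and ADK at 32.1, with no overlap between neighbours in that order. AMPD2 at 12.7, MTAP at 9.40, SLC29A2 at 8.63, ADA at 7.49 and NT5C2 at 5.15 CPM per kb followed, and each of these overlapped over the 8 libraries with the next among these 5. NT5E at 3.40 and AMPD3 at 0.0460 CPM per kb came last, with no overlap between NT5C2 and NT5E. The place of NT5C2 is uncertain, since exons of CNNM2 cover 53.1% of its canonical transcript. The levels per kb take the canonical isoform as the one expressed, which was not tested. With toyocamycin at 72 h the order was AHCY at 25.6, NT5E at 23.4, AMPD2 at 15.8, ADK at 12.5 and SLC29A1 at 8.75 CPM per kb. MTAP at 8.22, SLC29A2 at 1.95, NT5C2 at 1.44, AMPD3 at 0.376 and ADA at 0.188 CPM per kb closed it. NT5E moved from rank 9 to rank 2 and ADA from rank 7 to rank 10. In that order AMPD2 overlapped with ADK, SLC29A1 with MTAP, and AMPD3 with ADA.

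**Figure D5:**
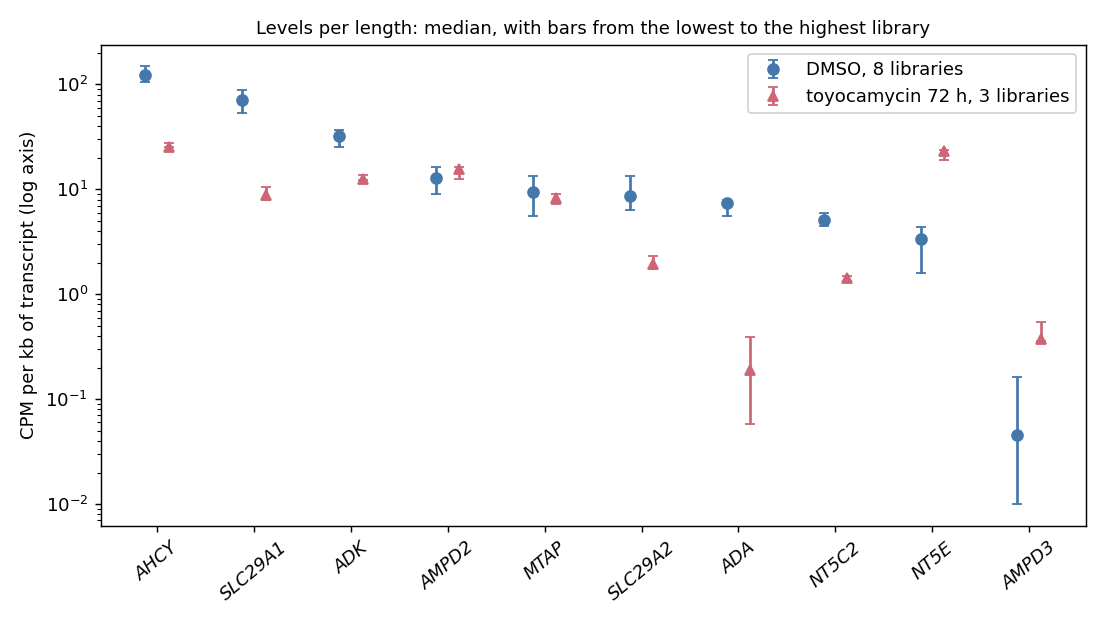
Median CPM per kb of canonical transcript (log axis) of the 10 genes, ordered by their level in DMSO, with bars from the lowest to the highest library, for the 8 DMSO libraries (circles) and the 3 toyocamycin libraries of 72 h (triangles). The spread from AHCY to the second lowest gene in DMSO, NT5E, is 124 to 3.40 CPM per kb, and with toyocamycin AHCY and NT5E stand next to each other at 25.6 and 23.4.

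Of 53 other genes of adenosine, nucleotide and methionine-cycle metabolism that were listed for comparison, 52 were in the table and 44 were tested at 2 h and 72 h. At 2 h 1 was called as higher, NME2, and 2 as lower, ADORA2A and AMD1. Over all genes 8.94% were called at 2 h, 0.518% as higher and 8.42% as lower. ADORA2A was then at 0.0408 and 0.0534 CPM with toyocamycin against 0.290 and 0.659 CPM in DMSO, a level of few counts. At 72 h 15 were called as higher, 23 as lower and 6 were not called, so 38 of 44 passed beside 88.8% of all genes, of which 47.0% were higher and 41.9% lower. The counts by role below stand beside that same background. Both other equilibrative transporters tested were lower at 72 h, SLC29A4 at 1.78 to 2.27 CPM against 26.7 to 42.5 CPM and SLC29A3 at 0.493 to 1.31 CPM against 11.9 to 12.7 CPM. SLC29A4 had been higher at 10 h, at 55.2 and 109 CPM against 27.7 CPM in DMSO (log2 fold change 1.58, edgeR adjusted p = 0.00436). That value includes toyocamycin replicate 2 of 10 h, which stands apart, and 1 DMSO library. The DMSO libraries of 2 h held SLC29A4 at 35.7 and 45.8 CPM. Among the adenosine receptors 2 rose and 1 fell at 72 h. ADORA1, which couples to inhibitory G proteins, was at 0.394 to 0.876 CPM against 7.77 to 11.2 CPM, and ADORA2A, which couples to stimulatory G proteins, was at 1.08 to 2.45 CPM against 0 to 0.137 CPM, a level of few counts in DMSO.

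Of 13 other nucleoside and nucleotide kinases, 7 rose and 3 fell at 72 h. NME2, a nucleoside diphosphate kinase, was at 34.5 to 41.9 CPM against 0.422 to 0.733 CPM, although it shares exons with a read-through gene of NME1 and NME2, so its counts are uncertain. NME3 was at 14.4 to 15.9 CPM against 84.9 to 126 CPM. Both other deaminases tested rose at 72 h, from levels near 0: ADA2 was at 0.394 to 1.22 CPM against 0 to 0.0977 CPM, and AMPD1 at 0.281 to 1.14 CPM against 0 CPM in every DMSO library of that time. Of 5 other intracellular nucleotidases tested, 1 rose and 3 fell. NT5C3B was at 8.06 to 13.2 CPM against 54.3 to 58.4 CPM. The 1 counted as risen was NT5C1B, at 0 in DMSO at 72 h and at 0 to 0.350 CPM with toyocamycin, a level of few counts. Of 5 ecto-nucleotidases other than NT5E, 2 rose and 3 fell, from ALPL, tissue-nonspecific alkaline phosphatase, at 0.350 to 1.58 CPM against 5.28 to 6.64 CPM, to ENTPD8 at 0 to 0.937 CPM against 0.0844 to 0.391 CPM.

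In purine salvage, PNP, which splits inosine and guanosine, rose at 72 h to 43.6 to 51.2 CPM against 32.9 to 34.7 CPM (log2 fold change 0.48, edgeR adjusted p = 0.00246). HPRT1 was at 22.6 to 23.9 CPM against 54.0 to 80.6 CPM, and the third member, APRT, also fell. Of 11 genes of the methionine cycle and methylthioadenosine salvage, 9 fell at 72 h and 0 rose. ADI1 was at 4.82 to 5.52 CPM against 85.6 to 103 CPM. AMD1, the decarboxylase that commits S-adenosylmethionine to polyamine synthesis, was lower at 2 h, at 65.7 and 79.1 CPM against 105 and 162 CPM (log2 fold change -0.89, edgeR adjusted p = 0.0232). At 72 h AMD1 was at 85.9 to 89.2 CPM against 70.3 to 115 CPM, and was not called.

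Over the 17 libraries, the genes whose log2 CPM followed ADK most closely were CALU (Pearson's r = 0.979), CD109 (0.977) and ATP5F1A (0.976). For ADA they were RFXANK (0.984), SNX1 (0.981) and STK26 (0.9802), and for SLC29A1 they were SLC27A4 (0.993), NUP188 (0.992) and ACSS1 (0.991). Each was taken from the genes with an average log2 CPM of at least 3. These points share treatment, time and library scaling, and most of the genes moved between DMSO and toyocamycin at 72 h, so the coefficients are descriptions.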

How the data were processed

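RNA was extracted from YB5 cells treated with DMSO (8 libraries) or 250 nM toyocamycin (9 libraries), enriched for polyadenylated RNA and sequenced as paired ends. Per the study's methods and the submitters' processing notes, the authors aligned reads with STAR 2.7.5a to GRCh38 and deposited counts per Ensembl gene from STAR's gene counting, which are not normalised. The authors' own table of edgeR fold changes and p-values for 5 contrasts was not used. In the count table, 1 column of per-sample values, whose name reads as a further DMSO library of 10 h, matched no sample used here and was not analysed, so 10 h rests on 1 DMSO library. The labels' protocol calls the replicates biological triplicates and says no more of separate cultures, so p-values measure the spread between these libraries. That spread was shared over all groups of a fit. The p and SE of 10 h thus also draw on the replicates of other times, and the 1 DMSO library of 10 h adds no spread of its own.

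Gene IDs were matched to symbols through GENCODE v44, which gave a symbol for 19080 of 19141 genes and the canonical transcript lengths. Counts were tested in R 4.3.3 with edgeR 4.0.16 (filterByExpr, TMM, the quasi-likelihood test in its legacy form, Benjamini-Hochberg over all genes tested, adjusted p under 0.1). A fit of 14 libraries gave 2, 24, 48 and 72 h (14491 genes), and a fit of all 17 libraries gave 10 h (16521 genes). Printed CPM come from the latter scaling or differ from it by at most 1.69%. Alternatives used DESeq2 1.42.0, other scalings, filters and thresholds, a batch term, replicate blocks and leaving out each replicate. At 2 h the numbers pair the samples because they are the batches in the labels (same-number correlation of deviations 0.342). No replicates agreed within sampling noise (chi-square per degree of freedom 5.73 to 67.1).

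All 10 members were named. Of the other lists, genes called at 2 h and those at either end of the fold change at 72 h were named, with APRT and SLC29A4 at 10 h named after their values were seen. The members and lists were chosen with earlier results of these data known. Promoter sequences are RefSeq's, on GRCh38.p14. The test scripts were checked on simulated counts. Counts limit what can be seen below about 3 counts in a library.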

Additional observations from a re-analysis of the deposited data

Results flagged for a closer look

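For 8 of the 10 genes the effect of toyocamycin at 72 h differed from that at 2 h by a test of the difference itself, edgeR's quasi-likelihood test on the effect at 72 h minus the effect at 2 h with Benjamini-Hochberg adjustment over all genes. On the log2 scale the difference was -5.41 for ADA (edgeR adjusted p = 2.76e-08), -3.08 for SLC29A1 (3.23e-09), -2.93 for SLC29A2 (1.43e-07) and -2.68 for AHCY (4.35e-09). It was -1.79 for NT5C2 (edgeR adjusted p = 5.59e-06), -1.63 for ADK (5.70e-06), 2.48 for NT5E (1.11e-06) and 2.77 for AMPD3 (0.0551). The AMPD3 value rests on 4 and 0 counts with toyocamycin at 2 h against 5 and 2 in DMSO. It was 2.15 without DMSO replicate 1 of 2 h and 2.00 without toyocamycin replicate 2 of 2 h, neither of them called, and 6.59 without toyocamycin replicate 1 of 2 h, where the lone library left held 0 counts and the fold is no bound. These differences stand beside 76.1% of all genes called in the same contrast. Batch 2 of the labels holds 1 library of each arm at 2 h and none at 72 h. With batch as a term in a fit of all 17 libraries 7 of the 8 were called, AMPD3 being the exception (edgeR adjusted p = 0.181). AMPD3 was also not called in the fit of all 17 libraries without that term (edgeR adjusted p = 0.232). The same held with library size alone (0.116) and with mitochondrially encoded genes as the scale (0.245).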

How the results depend on the processing

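At 72 h the falls of SLC29A1, SLC29A2, ADK, AHCY, ADA and NT5C2 and the rise of NT5E kept their direction and their call under every alternative that could test them. MTAP at 72 h lost its call with DESeq2 size factors (-0.16), DESeq2's test (-0.16), at least 10 counts in every library (-0.20) and a minimum fold change of 1.5. The number of members called was 0 at 2 h and 3 with the replicate block, which also changed no other call at that time. At 72 h same-number libraries did not deviate together (correlations -0.133, 0.0613 and -0.118), so the numbers pair nothing there, and 9 members were called with the block as without it. At 10 h 5 were called, 3 with mitochondrially encoded genes as the scale, 2 with a minimum fold change of 1.5 and 2 with the libraries of 10 h alone. Past 2-fold at 48 h were 5, 8 with the mitochondrial scale and 3 with at least 10 counts in every library. On the mitochondrial scale the median log2 fold change of all genes at 48 h was -1.64, beside 0.16 with TMM. At 10 h that scale called 503 of 16521 genes as higher and 5362 as lower, beside 3375 and 4033 with TMM. Counts of members under an alternative are by themselves no result about these genes. In DMSO, 72 h against 2 h, 1 was called, 2 with DESeq2's test, 2 with batch as a term and 0 with a minimum fold change of 1.5. Leaving out 1 library gave 1 to 2 there, 4 to 5 at 10 h, 9 at 72 h, 0 at 2 h, 7 to 9 for 72 h minus 2 h and 7 to 8 for 72 h minus 10 h. The cause of these shifts was not tested. Of 1162 values of single genes under an alternative, 1025 counted as unchanged. Of the rest, 30 lost a call, 21 gained one, 47 changed sign and 39 without a test moved. A tested value counted as unchanged where it kept its direction and its side of the threshold. A value of 24 h or 48 h did so where it shifted by less than its fitted SE. At those times a sign change was counted only for members past 2-fold in the main fit, so others lie among the 1025 and the 39.

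Sign changes of tested values, and of members past 2-fold at 24 h or 48 h, were as follows. Under DESeq2 size factors the log2 value was 0.033 for NT5C2 at 2 h and 0.21 at 10 h, 0.086 for AMPD2 in the difference of 72 h and 2 h and 0.097 in that of 72 h and 10 h. With DESeq2's test these were 0.033, 0.20, 0.086 and 0.099, and with at least 10 counts in every library 0.022, 0.15, 0.056 and 0.15. With library size alone AMPD2 was -0.54 at 72 h and -0.41 at 10 h, and ADK -0.044 in DMSO over time. With mitochondrially encoded genes as the scale, ADK was -0.48, AHCY -0.0038, NT5E -0.025 and AMPD2 -0.96 at 10 h, AHCY -1.13 and NT5E -0.39 at 24 h, AMPD3 -0.72 at 48 h and AMPD2 -1.06 at 72 h, and in DMSO over time NT5C2 was 0.48, SLC29A1 0.58 and NT5E 0.39. With batch as a term NT5C2 was 0.038 and AMPD2 -0.28 at 10 h, AMPD2 -0.059 in DMSO over time, and MTAP -0.067 and AMPD2 0.31 for 72 h minus 10 h. In the libraries of 10 h alone NT5C2 was 0.069. Without 1 library, NT5C2 ranged from -0.097 to 0.10, MTAP from -0.44 to 0.23, AMPD2 from -0.039 to 0.51 and AMPD3 from -4.58 to 0.039 at 2 h. At 10 h NT5C2 ranged from -0.18 to 0.17 and AMPD2 from -0.46 to 0.47. AMPD2 ranged from -0.066 to 0.18 at 72 h, from -0.43 to 0.098 for 72 h minus 2 h and from -0.42 to 0.48 for 72 h minus 10 h, where AMPD3 ranged from -3.51 to 1.33. ADK in DMSO over time ranged from -0.081 to 0.30. Members within 2-fold also changed sign at 24 h and 48 h. At 24 h ADK, 0.32 in the main fit, was -0.70 with library size alone and -1.96 with mitochondrially encoded genes as the scale. MTAP, 0.28 in the main fit, was -0.73 and -1.99 there. AMPD2 was -0.058 at 24 h and -0.14 at 48 h in the main fit, and reached 0.091 and 0.11 over the alternatives.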
